A study of Homo sapiens with 6 samples.

Results

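Transcripts of 9 genes of the mitochondrial tricarboxylic acid (TCA) cycle were followed in HN12 cells treated with CPI-613 and in cells given solvent. The genes were CS, IDH3A, IDH3B, IDH3G, IDH2, SUCLG1, SUCLA2, FH and MDH2, taken by symbol from the deposited table of FPKM per gene and by gene identifier from the deposited table of estimated counts per transcript, whose rows were summed per gene. They are 9 of 16330 genes in the count table. All 9 passed the filter on low counts that left 12671 genes for testing. None of the 27 transcripts in which a cell held a date in place of a number belonged to them.

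HN12 is an established human cell line derived from a squamous carcinoma of the head and neck. One group of 3 libraries, called CPI-613, came from HN12 cells exposed to CPI-613 for 24 h, and the other group of 3, called Control, from HN12 cells exposed to DMSO, the solvent, for the same time. All 6 libraries share 1 cell line, 1 medium and 1 time point, and the sources used here give no dose of CPI-613. Nothing in the labels says that replicates came from separate cultures, and the p-values therefore rest on a spread between libraries that may be technical.

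The TCA cycle oxidises acetyl groups to carbon dioxide in the mitochondrial matrix and hands the electrons to NADH and FADH2. Pyruvate dehydrogenase supplies the acetyl-CoA, and 2-oxoglutarate dehydrogenase stands inside the cycle between 2-oxoglutarate and succinyl-CoA. Both complexes carry lipoic acid, and CPI-613, also called devimistat, is an analogue of lipoic acid that targets them. The 9 enzymes and subunits described here lie around those complexes and carry no lipoic acid.

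The libraries held 13458530 to 15486513 estimated counts in CPI-613 and 11531942 to 12508570 in Control, with 12283 to 12699 genes at 10 or more counts. Of 12 squamous epithelial markers, all of them detected, 5 had a log2 fold change above 0 and 7 below, with a median of -0.17. KRT17 had 1210, 2517 and 3939 CPM (counts scaled to the TMM-normalised library size) in CPI-613 against 2231, 1725 and 3205 CPM in Control, and KRT5 had 459, 874 and 1553 CPM in CPI-613 against 2104, 2021 and 2568 CPM in Control. ITGB4, an integrin of basal epithelium, rose in CPI-613, with 4261, 5882 and 6916 CPM against 2273, 2780 and 2190 CPM in Control (log2 fold change 1.24, adjusted p = 0.0481 by edgeR). KRT5 had a log2 fold change of -1.21 as fitted (adjusted p = 0.226) and fell by 1.47 on the log2 scale in the GC- and length-adjusted fit described next (adjusted p = 0.0166), where ITGB4 rose by 1.11 (adjusted p = 0.0022). These 3 markers were picked for the text after their values were seen. The leukocyte marker PTPRC was at 0 to 0.0713 CPM in CPI-613 and 0.0764 to 0.155 CPM in Control. Of 10 leukocyte markers, 5 are in the table, summing to 41.2 to 80.2 CPM in CPI-613 and 48.5 to 66.9 CPM in Control, most of it CD68. Of 8 fibroblast markers, 5 summed to 31.1 to 41.4 CPM in CPI-613 and 35.6 to 42.1 CPM in Control, most of it COL1A1. The 6 endothelial markers summed to 0.285 to 0.846 CPM in CPI-613 and 1.3 to 2.9 CPM in Control. The libraries also stood apart by the base composition of the transcripts they recovered. Between CPI-613 replicates 3 and 1, a pair chosen after the values were seen, genes under 40% GC differed by a median of -2.07 on the log2 scale and genes of 60% GC or more by 0.88. Between Control replicates 2 and 1 the same medians were -0.49 and 0.31. The log2 fold change of each member is therefore given both as fitted and after removal of the trend that each library shows with GC content and length, and the part of this trend in any result was not tested beyond that.

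The TCA cycle members span a wide range of base composition, which matters for reading their values. SUCLA2 has the lowest GC content of the 9 transcripts, 39.8%, and IDH3G the highest, 60.4%. The middle 150 coding bases of each, taken from GENCODE 29 transcripts on GRCh38, are shown with G and C in capitals, to make visible the property along which the CPI-613 libraries differed. The SUCLA2 stretch (coding bases 620 to 769) holds 59 such bases and the IDH3G stretch (coding bases 515 to 664) holds 92.
SUCLA2: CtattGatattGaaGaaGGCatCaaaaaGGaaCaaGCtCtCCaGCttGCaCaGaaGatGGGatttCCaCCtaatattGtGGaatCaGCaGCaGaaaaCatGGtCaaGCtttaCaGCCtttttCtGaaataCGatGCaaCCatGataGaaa
IDH3G: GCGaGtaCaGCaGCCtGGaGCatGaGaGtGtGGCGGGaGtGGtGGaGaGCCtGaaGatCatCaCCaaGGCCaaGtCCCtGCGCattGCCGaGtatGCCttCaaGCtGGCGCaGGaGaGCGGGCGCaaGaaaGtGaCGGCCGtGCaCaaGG

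None of the 9 TCA cycle genes passed the test for a difference between CPI-613 and Control cells. By the quasi-likelihood test of edgeR, adjusted by Benjamini-Hochberg over all genes, 0 of 9 had an adjusted p under 0.05, where 3.18% of all genes tested did (1.94% higher and 1.24% lower in CPI-613). At an unadjusted p under 0.05 the count was also 0 of 9, against 14.4% of all genes. DESeq2 called 0 of 9 where it called 7.05% of all genes, limma-voom 0 of 9 against 3.27%, and limma on log2(FPKM + 1) 0 of 9 against 4.07%. The median log2 fold change of the 9 genes was -0.03, against 0.02 over all genes tested, with 4 genes above 0 and 5 below. Their summed level was 685 to 1054 CPM in CPI-613 and 755 to 965 CPM in Control. A change in the amount of these transcripts per cell and a change in the number of cells that hold them cannot be told apart in bulk RNA. The intervals of the single genes allow changes in either direction, down to 0.244-fold for SUCLA2 and up to 1.92-fold for MDH2. The absence of a call therefore does not show equal levels.

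The FPKM scale divides counts by transcript length and library total, so that levels of different genes can be set side by side. It does not correct for GC content, along which the libraries differed, and the order of genes of unlike GC content carries that limit. On this scale MDH2 and CS stood at the top in both groups. MDH2 averaged 113 ± 31 FPKM in CPI-613 and 113 ± 18.1 FPKM in Control (SD, n = 3 each). CS averaged 95.6 ± 11.2 FPKM in CPI-613 and 109 ± 13.2 FPKM in Control, and the ranges of these 2 genes overlapped within each group. SUCLG1 came next with 60 ± 12.2 FPKM in CPI-613 and 71.4 ± 9.6 FPKM in Control. The middle of the order held IDH3G, IDH3B and FH in CPI-613 and FH, IDH3G and IDH3B in Control, with overlapping ranges between neighbours. IDH3A, SUCLA2 and IDH2 formed the low end in both groups, and in Control each of them lay apart from its neighbour. In CPI-613 the ranges of IDH3A and SUCLA2 overlapped, as did those of SUCLA2 and IDH2.

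**Figure D1:**
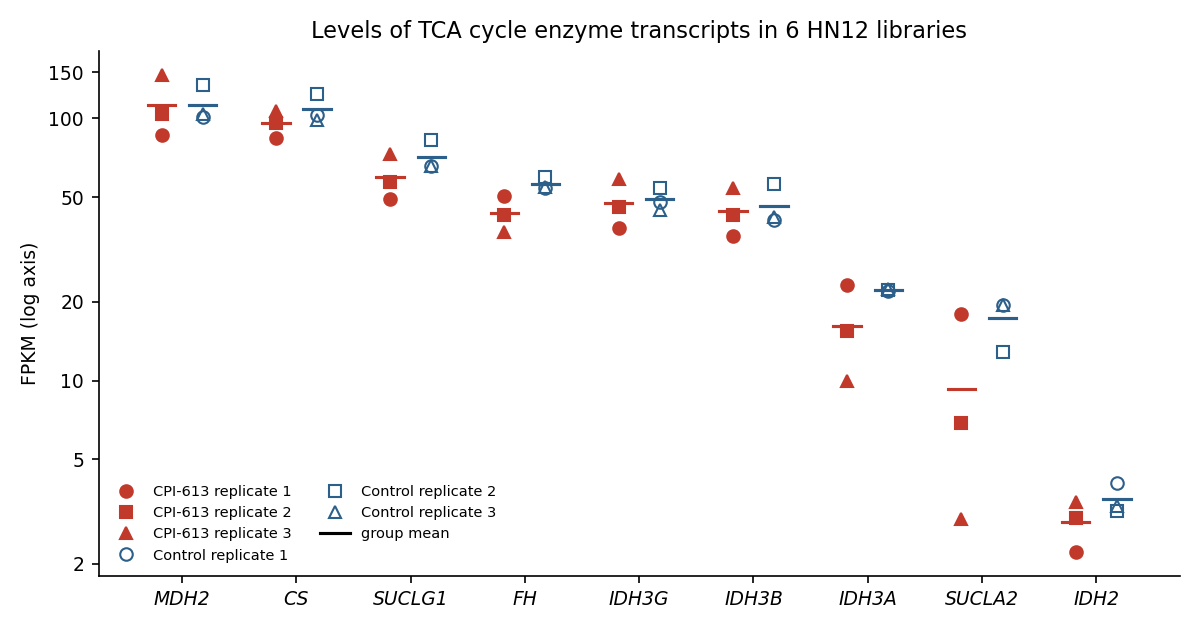
FPKM of the 9 TCA cycle genes (vertical axis, log scale) in each of the 3 CPI-613 and 3 Control libraries, with CPI-613 left of Control for each gene. MDH2 and CS lie highest and IDH2 lowest, and the CPI-613 points of SUCLA2 spread from 2.96 to 17.9 FPKM.

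CS encodes citrate synthase (chromosome 12, 56271699 to 56300330 on GRCh38, minus strand), which joins acetyl-CoA to oxaloacetate and so starts the cycle. It had 84.3, 95.8 and 107 FPKM in CPI-613 replicates 1, 2 and 3, against 103, 124 and 99 FPKM in Control replicates 1, 2 and 3. On this scale CPI-613 replicate 1 was the lowest of the 6 libraries and Control replicate 2 the highest, and the groups overlapped. In CPM, CPI-613 replicate 3 was the highest, with 343 CPM against 322 CPM in Control replicate 2. In the fit across all genes, CS differed by 0.03 on the log2 scale (SE 0.23, 95% interval -0.50 to 0.56, adjusted p = 0.97 by edgeR). The estimate was -0.04 with the GC and length trends removed (95% interval -0.49 to 0.41).

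NAD-dependent isocitrate dehydrogenase, which oxidises isocitrate to 2-oxoglutarate, is built from a catalytic subunit encoded by IDH3A, a second subunit encoded by IDH3B and a regulatory subunit encoded by IDH3G. IDH3A (chromosome 15, 78149362 to 78171945, plus strand) had 23.1, 15.5 and 10 FPKM in CPI-613, against 22, 22.1 and 22.4 FPKM in Control. The 3 Control libraries lay within 1.02-fold of each other, while the CPI-613 libraries spanned 2.3-fold and reached both above and below them. Its log2 fold change was -0.28 (SE 0.25, 95% interval -0.87 to 0.32, adjusted p = 0.739 by edgeR), and -0.10 after the GC and length adjustment.

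IDH3B (chromosome 20, 2658395 to 2664216, minus strand) had 35.6, 43 and 54.2 FPKM in CPI-613, against 40.9, 56.4 and 42.2 FPKM in Control. IDH3G (chromosome X, 153785768 to 153794375, minus strand) had 38.3, 46 and 58.6 FPKM in CPI-613, against 48.2, 54.4 and 44.8 FPKM in Control. For both genes CPI-613 replicate 1 was the lowest library, and the groups overlapped. The log2 fold change of IDH3B was 0.13 (SE 0.29, 95% interval -0.56 to 0.83, adjusted p = 0.876) and that of IDH3G was 0.19 (SE 0.27, 95% interval -0.45 to 0.83, adjusted p = 0.822). With the GC and length trends removed the estimates were -0.07 for IDH3B and -0.01 for IDH3G. The adjusted values of IDH3G were then 56, 55.3 and 53.5 CPM in CPI-613 and 56, 55.3 and 54.9 CPM in Control. This left the log2 difference within a 95% interval of -0.26 to 0.23, the narrowest of the 9 genes.

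IDH2 (chromosome 15, 90083045 to 90102468, minus strand) encodes the NADP-dependent isocitrate dehydrogenase of the matrix, which produces NADPH in the same chemical step. It was the least abundant of the 9, with 2.22, 2.98 and 3.43 FPKM in CPI-613 against 4.07, 3.19 and 3.33 FPKM in Control, on 50 to 95 counts per library. In FPKM the groups overlapped through CPI-613 replicate 3. In CPM they overlapped through CPI-613 replicate 2 as well (5.3 against 4.97 CPM in Control replicate 2). Its log2 fold change was -0.08 (SE 0.33, 95% interval -0.86 to 0.71, adjusted p = 0.936), and -0.31 after the adjustment (95% interval -0.85 to 0.23).

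Succinyl-CoA synthetase converts succinyl-CoA to succinate and forms ATP or GTP. Its alpha subunit, encoded by SUCLG1, pairs with the ATP-specific beta subunit encoded by SUCLA2 or the GTP-specific beta subunit encoded by SUCLG2. SUCLG1 (chromosome 2, 84423528 to 84459280, minus strand) had 49.3, 57.4 and 73.4 FPKM in CPI-613, against 66, 82.5 and 65.7 FPKM in Control. On this scale CPI-613 replicates 1 and 2 lay below all 3 Control libraries and replicate 3 lay between them. In CPM, with TMM scaling as in the fit, SUCLG1 had 48.8, 64 and 91 in CPI-613 against 61.5, 82.9 and 62.9 in Control. There CPI-613 replicate 3 was the highest library. The log2 fold change was -0.03 (SE 0.27, 95% interval -0.67 to 0.62, adjusted p = 0.981), and -0.11 after the adjustment.

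SUCLA2 (chromosome 13, 47942656 to 48001273, minus strand) had the largest estimated difference of the 9 genes and the widest spread. It had 17.9, 6.87 and 2.96 FPKM in CPI-613, on 450, 180 and 86 counts, against 19.5, 12.8 and 19.5 FPKM in Control, on 421, 301 and 445 counts. CPI-613 replicate 1 lay inside the Control range, while replicates 2 and 3 lay below all Control libraries. The CPI-613 libraries spanned 6.04-fold and the Control libraries 1.52-fold. Its log2 fold change was -0.78 (SE 0.54, 95% interval -2.04 to 0.48, adjusted p = 0.631 by edgeR). With the GC and length trends removed, SUCLA2 had 22.8, 15.1 and 12.8 CPM in CPI-613 against 27.4, 24.2 and 26.6 CPM in Control, and the groups no longer overlapped. Over all genes with such values, 14.8% had CPI-613 below Control without overlap. The adjusted log2 fold change was -0.61 (SE 0.22, 95% interval -1.13 to -0.09), with an unadjusted p of 0.0272 and an adjusted p of 0.136 by edgeR. In that fit 0 of 9 genes passed the adjusted threshold, where 11.2% of all genes did, and SUCLA2 was the 1 gene of the 9 at an unadjusted p under 0.05, where 25.2% of all genes were. Without CPI-613 replicate 1 the same fit gave SUCLA2 a log2 fold change of -0.90 and an adjusted p of 0.0104, a setting added after the data were seen. Over all settings tried, the adjusted p of SUCLA2 was 0.0104 to 0.999. GENCODE 29 lists 3 pseudogenes named for SUCLA2 and 1 for FH, and how reads shared with them were counted is not given in the sources used here.

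FH encodes fumarase (chromosome 1, 241497603 to 241519755, minus strand), which hydrates fumarate to malate. It had 50.6, 42.8 and 37 FPKM in CPI-613, against 54.1, 60 and 54.7 FPKM in Control. FH was the 1 gene of the 9 whose groups did not overlap, on the FPKM scale and on the CPM scale, and CPI-613 was the lower group. Over all genes tested, CPM did not overlap between the groups in 21%, with CPI-613 lower in 9.17%, and FPKM did not overlap with CPI-613 lower in 15.1%. The log2 fold change was -0.18 (SE 0.17, 95% interval -0.58 to 0.21, adjusted p = 0.74 by edgeR). After the GC and length adjustment FH had 64.1, 71.6 and 98 CPM in CPI-613 against 69.8, 93.4 and 70.6 CPM in Control. The groups then overlapped, with an estimate of -0.0021 on the log2 scale (95% interval -0.46 to 0.46).

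MDH2 encodes mitochondrial malate dehydrogenase (chromosome 7, 76048106 to 76067508, plus strand), which regenerates oxaloacetate and closes the cycle. It had 86.8, 104 and 147 FPKM in CPI-613, against 101, 134 and 104 FPKM in Control. CPI-613 held both the lowest and the highest of the 6 libraries. The log2 fold change was 0.22 (SE 0.30, 95% interval -0.49 to 0.94, adjusted p = 0.813), and 0.02 after the adjustment (95% interval -0.38 to 0.43).

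**Figure D2:**
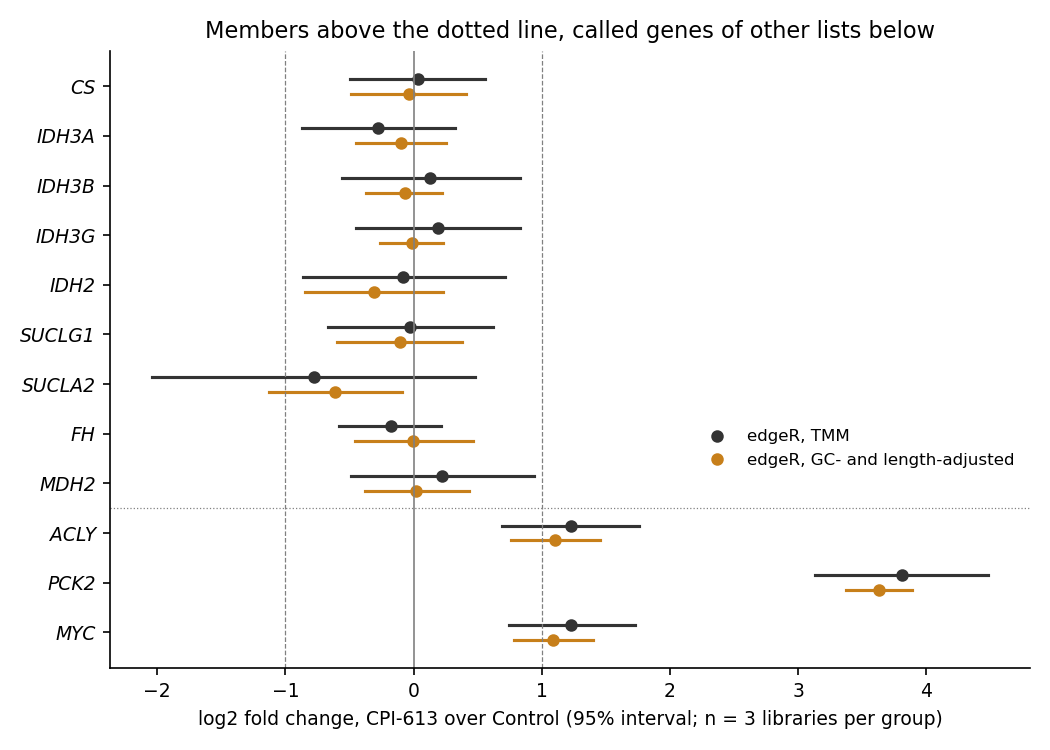
Log2 fold change of CPI-613 over Control with its 95% interval, as fitted by edgeR and after each library's GC and length trends were removed. The 9 TCA cycle genes lie above the dotted line, and ACLY, PCK2 and MYC, called genes of other lists, below it. As fitted, the intervals of all 9 TCA cycle genes include 0. After the adjustment the interval of SUCLA2, -1.13 to -0.09, is the 1 among these 9 that does not.

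The spread among the 3 CPI-613 libraries divided the 9 genes by base composition. Replicate 3 was above replicate 1 in CPM for the 6 genes of 48% GC or more, and below it for the 3 genes at 43.7% or less. The log2 differences were -2.24 for SUCLA2, -0.87 for IDH3A and -0.13 for FH. They were 0.66 for CS, 0.90 for SUCLG1, 0.94 for IDH3B, 1.08 for MDH2, 1.01 for IDH2 and 0.91 for IDH3G. The 11615 tested genes with known GC content and a mean log2 CPM above 1 showed the same course. Their medians were -2.07 under 40% GC, -1.14 from 40% to 45%, -0.09 from 45% to 50%, 0.50 from 50% to 55%, 0.76 from 55% to 60% and 0.88 from 60% up. FH and SUCLG1 lay farther above the median of their GC class than the other members did, by the values just given. These are differences between 2 libraries of 1 group and were not tested.

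**Figure D3:**
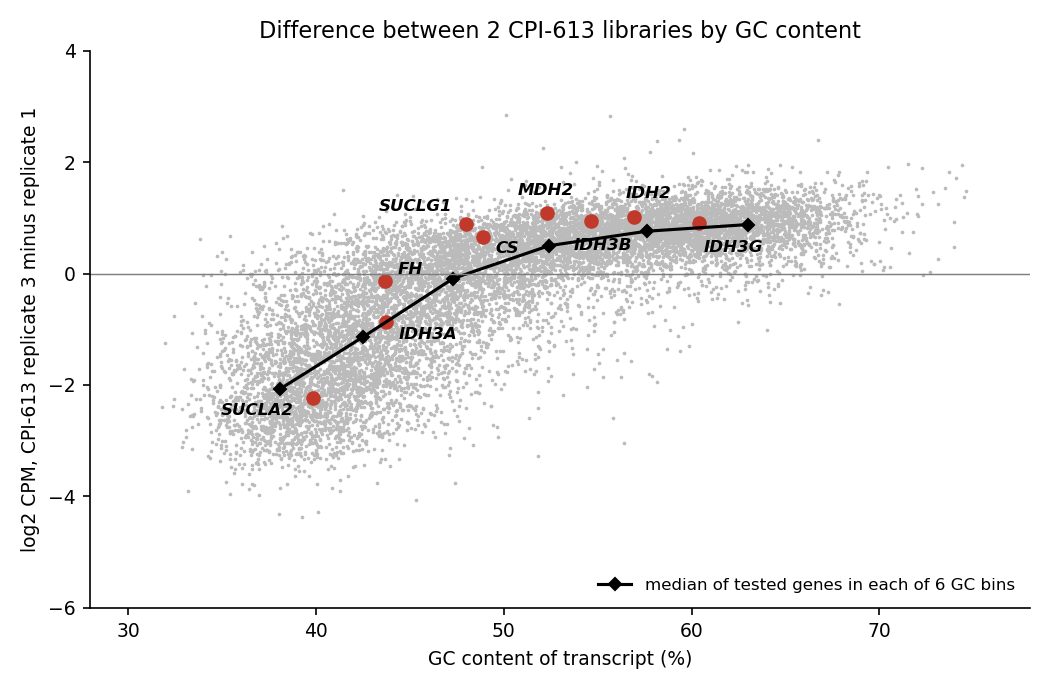
Log2 difference in CPM between CPI-613 replicates 3 and 1 (vertical axis) against the GC content of the transcript in percent (horizontal axis). The 11615 tested genes with known GC content and a mean log2 CPM above 1 are in grey. The 9 TCA cycle genes are in red and the median of each of 6 GC classes in black. SUCLA2 (-2.24) lies at the lower left and IDH3G (0.91) at the upper right, along the course of the medians.

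With the GC and length trends removed, the median log2 fold change of the 9 was -0.07, with 1 gene above 0 and 8 below, against a median of 0.02 over all genes. In CPI-613 replicate 3 the trend assigned to SUCLA2 was -0.94 on the log2 scale and that assigned to IDH3G was 0.58. In Control replicate 1 these were 0.27 for SUCLA2 and -0.18 for IDH3G.

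**Figure D4:**
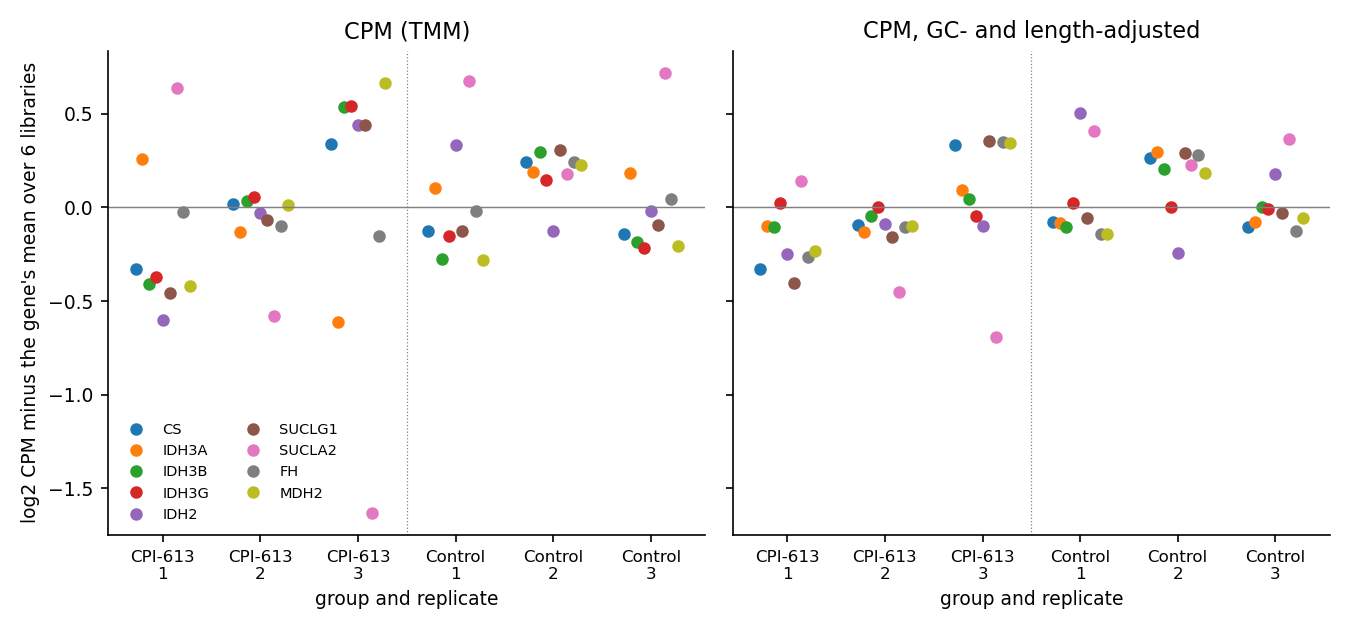
Log2 CPM of each of the 9 TCA cycle genes minus the gene's mean over the 6 libraries, for CPI-613 replicates 1 to 3 and then Control replicates 1 to 3, before (left) and after (right) removal of each library's GC and length trends. Before, SUCLA2 and IDH3A fall apart from the rest in CPI-613 replicate 3; after, SUCLA2 alone lies well below its mean there.

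Ratios between transcripts within a library do not depend on the scaling between libraries, and 10 pairs were compared by a two-sided exact permutation test, for which 3 against 3 libraries cannot go below p = 0.1. The ratio of the ATP-specific to the GTP-specific beta subunit, SUCLA2 to SUCLG2, was 2.12, 0.925 and 0.86 in CPI-613 against 2.3, 2.43 and 2.19 in Control. All 3 CPI-613 libraries lay below all Control libraries, with a mean log2 difference of -0.95 (exact permutation p = 0.1, adjusted over 10 pairs 0.667). It was the 1 pair of the 10 whose groups did not overlap. SUCLG2 has 41.2% GC, close to the 39.8% of SUCLA2, and was itself at 8.44, 7.43 and 3.44 FPKM in CPI-613 against 8.49, 5.27 and 8.92 FPKM in Control. With CPI-613 replicate 1 close to Control, the difference rests mainly on replicates 2 and 3.

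The ratio of IDH3B to IDH3G, 2 subunits of 1 enzyme, was 0.93, 0.935 and 0.925 in CPI-613 against 0.848, 1.04 and 0.943 in Control. The CPI-613 libraries lay within 1.01-fold of each other, although FPKM spanned 1.52-fold for IDH3B and 1.53-fold for IDH3G among them, and the groups overlapped (log2 difference -0.01, exact permutation p = 0.7). The ratio of IDH3A to IDH3G was 0.602, 0.337 and 0.171 in CPI-613 against 0.456, 0.406 and 0.501 in Control (log2 difference -0.47, exact permutation p = 0.5). SUCLA2 to SUCLG1 was 0.362, 0.12 and 0.0403 in CPI-613 against 0.296, 0.156 and 0.297 in Control (log2 difference -0.99, exact permutation p = 0.4). In these 2 ratios a transcript of low GC content stands over one of higher GC content, and CPI-613 replicate 3 was the lowest library in both.

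**Figure D5:**
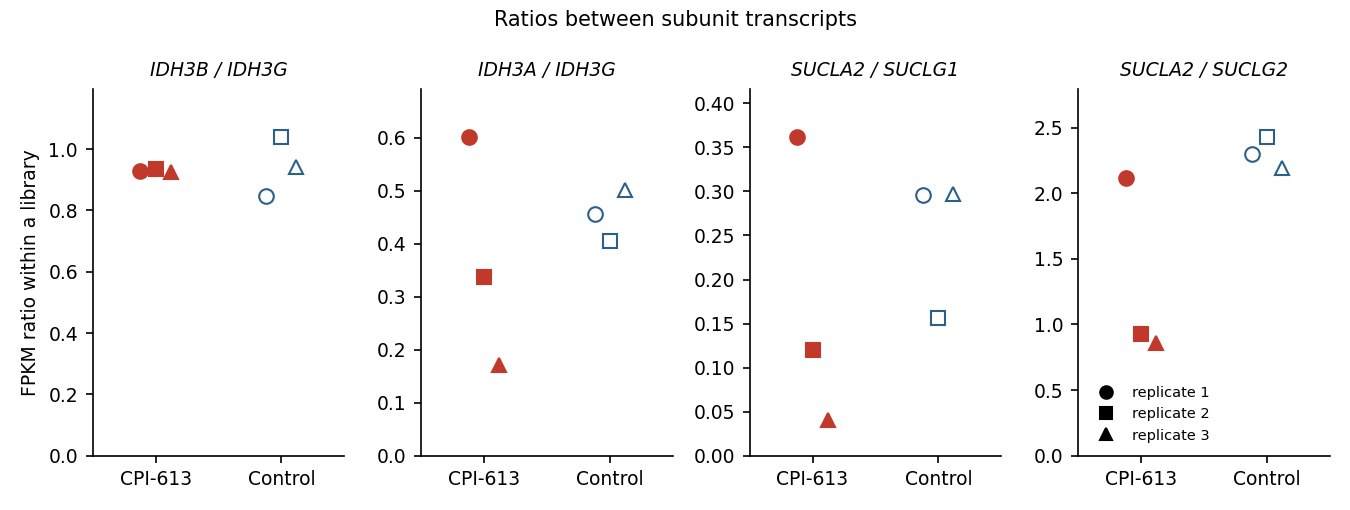
Ratios of FPKM within each library for 4 pairs of subunit transcripts, with CPI-613 left of Control and a symbol per replicate. The IDH3B to IDH3G points of CPI-613 coincide near 0.93, and the SUCLA2 to SUCLG2 points of CPI-613 (0.86 to 2.12) lie below all Control points (2.19 to 2.43).

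The remaining ratios overlapped between the groups. FH to MDH2 was 0.583, 0.411 and 0.252 in CPI-613 against 0.535, 0.448 and 0.526 in Control. MDH1, the cytosolic malate dehydrogenase, stood to MDH2 at 1.22, 0.98 and 0.599 in CPI-613 against 1.4, 1.03 and 1.36 in Control. IDH1, the cytosolic and peroxisomal NADP-dependent isocitrate dehydrogenase, exceeded IDH2 by 24, 17.4 and 11 times in CPI-613 against 10.3, 8.1 and 11.7 times in Control (log2 difference 0.74, exact permutation p = 0.2, adjusted over 10 pairs 0.667). For IDH1 to IDH2, CPI-613 replicate 3 lay inside the Control range.

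The count table gives CS, SUCLG1 and SUCLA2 a single transcript each. Among the other members, 9 transcripts held at least 5% of their gene's counts in a gene with 2 or more such transcripts. The main IDH3B transcript, NM_006899, held 85.6%, 85.9% and 89.9% of the gene's counts in CPI-613, against 93.3%, 93.4% and 93.6% in Control. A second IDH3B transcript, NM_001330763, held 10.8%, 11% and 7.82% in CPI-613 against 5.06%, 6.24% and 4.32% in Control. The groups did not overlap for either, with a difference of -6.31 percentage points for the first and 4.67 for the second (exact permutation p = 0.1 for both, the smallest possible, and 0.45 adjusted over the 9 transcripts). Over all libraries they held 90.3% and 7.56% of the IDH3B counts, so their shares nearly mirror each other and are not separate results. How often transcript shares do not overlap over all genes was not counted. The shares of the other 7 transcripts, in IDH3A, IDH3G and IDH2, overlapped between the groups. In IDH3A the 3 transcripts held 40.5%, 30.5% and 29% of the counts over all libraries. Transcript counts are estimates that divide reads common to several transcripts, so these shares carry an error that the permutation test does not include.

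The 250 bases before the transcription start were searched on both strands for short motifs of factors known to act at nuclear genes of mitochondrial proteins. The ETS motif CCGGAAG, of the family that holds GABPA, occurred in 3 of the 9 members, IDH3B, IDH3G and MDH2, against 16.1% of 10379 promoters of tested genes. The NRF1 core GCATGCGC occurred in 0 of 9, against 4.81% of promoters. Only this spelling was searched, so the count does not exclude other forms of an NRF1 site in the members. CCAAT occurred in 4 of 9 against 35%, and the GC box GGGCGG in 4 of 9 against 67.7%. The ATF4 element TGATGNAA occurred in 0 of 9 against 1.36%. For IDH2 the RefSeq table gives the stretch before an internal start (chr15:90100622-90100871), inside the gene range given above, while for the other 8 members the stretch lies directly before the gene's start. A match is a description of the letters only. The promoters of IDH3B and IDH3G were picked for display after the ratio of these 2 transcripts was seen. That ratio was near constant in CPI-613 but 0.848 to 1.04 in Control, and a link between it and the ETS motif was not tested. Both promoters hold the ETS motif, which is in capitals. Both come from RefSeq (GRCh38.p14) and are written on the gene's own strand, the minus strand, at chr20:2664217-2664466 for IDH3B and chrX:153794376-153794625 for IDH3G.
IDH3B: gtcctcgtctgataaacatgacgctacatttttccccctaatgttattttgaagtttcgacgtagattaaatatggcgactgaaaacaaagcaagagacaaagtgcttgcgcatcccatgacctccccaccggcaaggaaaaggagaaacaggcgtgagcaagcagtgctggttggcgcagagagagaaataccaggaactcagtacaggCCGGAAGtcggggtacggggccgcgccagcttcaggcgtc
IDH3G: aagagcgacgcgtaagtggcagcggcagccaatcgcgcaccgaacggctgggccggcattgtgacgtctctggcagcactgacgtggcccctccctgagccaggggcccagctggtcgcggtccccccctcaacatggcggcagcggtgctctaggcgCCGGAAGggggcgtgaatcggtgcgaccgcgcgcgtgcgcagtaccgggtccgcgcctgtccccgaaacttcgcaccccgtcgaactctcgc

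The rest of the cycle was examined through a list of 12 remaining subunits, among them aconitase, succinate dehydrogenase and the 2-oxoglutarate dehydrogenase complex. By edgeR 0 of 12 were called, where 3.18% of all genes were, and 0 of 12 had an unadjusted p under 0.05, where 14.4% of all genes did. DESeq2 and limma-voom also called 0 of 12. Their median log2 fold change was -0.04, and 3 of 12 did not overlap between the groups in CPM, against 21% of all genes. With the GC and length trends removed 0 of 12 were called, against 11.2% of all genes, and 2 of 12, OGDH and DLST, had an unadjusted p under 0.05, against 25.2%. The 2 with the highest mean CPM, a scale not corrected for length, were OGDH and SDHA. OGDH, the first component of 2-oxoglutarate dehydrogenase, had 252, 348 and 463 CPM in CPI-613 against 207, 284 and 239 CPM in Control, with overlap (log2 fold change 0.54, SE 0.26, adjusted p = 0.42). After the GC and length adjustment OGDH had 287, 333 and 383 CPM in CPI-613 against 220, 277 and 255 CPM in Control, without overlap (log2 fold change 0.42, 95% interval 0.07 to 0.76, adjusted p = 0.125). The share of all genes higher in CPI-613 without overlap was not counted on this adjusted scale. SDHA, the flavoprotein of succinate dehydrogenase, had 233, 296 and 359 CPM in CPI-613 against 279, 330 and 285 CPM in Control (log2 fold change -0.01, adjusted p = 0.99). After the adjustment SDHA had 277, 279 and 274 CPM in CPI-613 against 308, 314 and 319 CPM in Control (log2 fold change -0.18, 95% interval -0.40 to 0.04, adjusted p = 0.287). CPI-613 was lower without overlap, as in 14.8% of all genes on this scale.

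Of 10 genes for pyruvate entry and anaplerosis, 1 rose and 0 fell, where 1.94% of all genes rose. An unadjusted p under 0.05 was seen in 3 of 10, against 14.4% of all genes. In CPM 4 of 10 did not overlap between the groups, all higher in CPI-613, against 21% of all genes in both directions. PCK2, the mitochondrial phosphoenolpyruvate carboxykinase that withdraws oxaloacetate from the cycle, had 165, 232 and 308 CPM in CPI-613 against 15.5, 19.5 and 15.4 CPM in Control. Every CPI-613 library exceeded every Control library, as in 11.8% of all genes, and the log2 fold change was 3.81 (SE 0.29, adjusted p = 0.00418 by edgeR), and 3.63 after the GC and length adjustment (adjusted p = 3.25e-05). Of 9 tested cytosolic counterparts and linked enzymes, 1 rose and 0 fell. An unadjusted p under 0.05 was seen in 4 of 9, against 14.4% of all genes. In CPM 5 of 9 did not overlap, 4 higher and 1 lower in CPI-613, against 21% of all genes. ACLY, which splits exported citrate into acetyl-CoA and oxaloacetate in the cytosol, had 581, 824 and 943 CPM in CPI-613 against 309, 370 and 324 CPM in Control (log2 fold change 1.23, SE 0.23, adjusted p = 0.0367). It was 1.10 after the adjustment (adjusted p = 0.00406). Without Control replicate 1, or without Control replicate 3, edgeR as fitted called 0 genes in the whole table, while PCK2 differed by 3.75 in both cases and ACLY by 1.17 and 1.20 on the log2 scale. ACLY was also not called as fitted without Control replicate 2 (1.28) or CPI-613 replicate 2 (1.19). With the adjustment both genes stayed called without Control replicate 1 or 3, PCK2 at 3.61 and 3.62 and ACLY at 1.05 and 1.08. The adjusted p of PCK2 reached 0.0635 at most over all settings tried, and that of ACLY 0.232.

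After the GC and length adjustment 4 of these 9 counterparts and 3 of the 10 entry genes rose, where 6.15% of all genes did. The genes added, IDH1, ME1, GOT1, PC and GLUD1, were named after their values were seen. IDH1 had an adjusted log2 fold change of 0.93 (SE 0.22, adjusted p = 0.0393), ME1, the cytosolic malic enzyme, 0.96 (adjusted p = 0.0096) and GOT1, the cytosolic aspartate aminotransferase, 1.12 (adjusted p = 0.00632). PC, pyruvate carboxylase, had 0.58 (adjusted p = 0.0401) and GLUD1, glutamate dehydrogenase, 0.65 (adjusted p = 0.0442). As fitted without the adjustment, the log2 fold changes were 0.62 for IDH1, 0.57 for ME1, 1.27 for GOT1, 0.74 for PC and 0.60 for GLUD1, with adjusted p-values of 0.0571 (GOT1) to 0.482 (ME1).

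Of 7 tested genes of lipoylation and complex II assembly, 0 were called by edgeR, against 3.18% of all genes, 0 by DESeq2, against 7.05%, and 0 by limma-voom, against 3.27%. By edgeR 0 of 7 had an unadjusted p under 0.05, against 14.4% of all genes, so these counts are near the background. SDHAF2, an assembly factor that adds FAD to SDHA, had 17.4, 23.8 and 29.7 CPM in CPI-613 against 17.6, 26.3 and 19.8 CPM in Control. LIAS, which makes lipoic acid on its carrier proteins, had 12, 9.34 and 7.45 CPM in CPI-613 against 8.69, 9.8 and 9.93 CPM in Control. Both genes overlapped between the groups, with log2 fold changes of 0.15 for SDHAF2 and 0.02 for LIAS as fitted, and 0.14 and 0.12 for these genes after the adjustment. Of 9 tested regulators of mitochondrial gene transcription, 1 rose and 0 fell, where 1.94% of all genes rose and 1.24% fell. An unadjusted p under 0.05 was seen in 2 of 9, against 14.4% of all genes. MYC, a transcription factor that induces many metabolic genes, had 277, 301 and 345 CPM in CPI-613 against 112, 162 and 118 CPM in Control (log2 fold change 1.23, SE 0.21, adjusted p = 0.0275, and 0.196 at most over all settings tried). The adjusted estimate of MYC was 1.09 (adjusted p = 0.00299), and as fitted MYC was not called without Control replicate 1 (1.14), Control replicate 3 (1.16) or CPI-613 replicate 2 (1.26). Of 16 other mitochondrial proteins, 0 were called by edgeR, against 3.18% of all genes, 1 had an unadjusted p under 0.05, against 14.4%, and DESeq2 called 1, against 7.05%. ATP5F1B, the beta subunit of ATP synthase, had 590, 803 and 1189 CPM in CPI-613 against 698, 939 and 727 CPM in Control. HSPD1, the matrix chaperonin, had 708, 456 and 224 CPM in CPI-613 against 595, 655 and 611 CPM in Control. HSPD1 has 44.2% GC and ATP5F1B 51.3%, and CPI-613 replicate 3 was the lowest library for the first and the highest for the second. The log2 fold change of HSPD1 was -0.42 as fitted and -0.38 after the adjustment, and that of ATP5F1B was 0.13 as fitted and -0.07 after it. With the GC and length trends removed, 1 of the 9 regulators rose and 1 fell, where 5.08% of all genes fell, and 1 of the 16 other mitochondrial genes rose. The genes added, named after their values were seen, were PPARGC1B, a coactivator of mitochondrial gene expression (log2 fold change -0.88, adjusted p = 0.0204, against -0.84 and 0.122 as fitted), and LONP1, a matrix protease (0.75, adjusted p = 0.00406, against 0.92 and 0.113 as fitted).

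The genes outside the cycle whose profile over the 6 libraries lay closest to the median profile of the 9 members were WRNIP1, DDX41, UBAC1, MFN2 and PHF23, among 5836 candidates whose mean log2 CPM was 5 or more. The root mean square distance was 0.019 on the log2 scale for WRNIP1 and 0.032 for PHF23. The median profile of the members, centred on its mean, was -0.37, -0.03 and 0.43 in CPI-613 and -0.13, 0.23 and -0.09 in Control. All 5 genes have 53.6% to 59% GC, and their log2 fold changes lay between 0.02 and 0.07. Their adjusted p-values by edgeR were 0.922 to 0.986.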

How the data were processed

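Per the submitters' processing notes, CASAVA, STAR 2.5, HTSeq, edgeR 3.16.5 and DESeq2 were used with build hg38, with no role stated. The authors deposited estimated counts per RefSeq transcript and a table per gene whose unit is not named. The deposited values per gene were taken as FPKM, because over 1139 single-transcript genes the worth of 1 read followed the inverse library total within 0.408%. Strand-specific counting is not given in the sources used here.

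Estimated counts were summed per gene, rounded, filtered with filterByExpr (minimum count 10), scaled by TMM and tested two-sided with edgeR 4.0.16 quasi-likelihood functions on R 4.3.3. Benjamini-Hochberg adjustment covered all 12671 genes, and a gene with an adjusted p under 0.05 is called. The 53 genes without a symbol, 0.0163% of counts, entered the filter and the fit under their gene identifiers. Left out with the date cells were 3 genes. SE is the log2 fold change over the square root of F, and CPM use TMM library sizes. For the GC and length adjustment, each library's spline trend (4 degrees of freedom) on GC content and log2 length, from GENCODE 29 transcripts, became an offset. Alternatives were DESeq2 1.42.0, limma 3.58.1 (voom, and trend on log2(FPKM + 1) with a mean FPKM of at least 0.5, or a pseudocount of 0.1), other scalings and filters, a replicate block and leaving out each library. FPKM fold changes understate changes of low genes. Only the edgeR fits, with and without the GC and length adjustment, were tried on simulated data, and the other steps were not.

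The members and lists were chosen with earlier results of these data known. Named genes were all 9 members, from each list up to 4 called genes with the largest changes or, where none was called, up to 2 with the highest CPM, and the 5 genes of most similar profile. Coordinates are from RefSeq for GRCh38 patch 14. No pair of libraries agreed within counting noise, and precision rests on 3 libraries per group. Among the squamous markers, 1 item is not reported here.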

Additional observations from a re-analysis of the deposited data

How the results depend on the processing

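The count of TCA cycle genes called was 0 of 9 under every scaling, filter, tool, table and replicate block tried. With 1 library left out it was 0 to 1, the 1 being SUCLA2 without CPI-613 replicate 1 in the GC- and length-adjusted fit. Over all genes, 403 were called, against 893 by DESeq2, 1423 with the GC and length adjustment and 70 at an adjusted p of 0.01. The replicate block gave 191 calls, or 805 with the GC and length adjustment, and 0 of 9 members in both. The deviations of same-numbered libraries from their group means had correlations of 0.46, -0.10 and -0.61. Between libraries of unlike number these were -0.66 to 0.68. The deviations include each library's GC trend, so these values cannot show whether libraries were paired. The numbers were not taken as pairs because the labels do not call them so. Leaving out 1 library gave 0 to 2568 calls over all genes, with 0 without Control replicate 1 or 3 and 7 without CPI-613 replicate 2, before the adjustment. Of the 67 other listed genes, some of which did not pass the filter, 3 were called, where 3.18% of all genes tested were. DESeq2 called 7, against 7.05% of all genes, and the GC and length adjustment gave 10, against 11.2%. The count was 1 at an adjusted p of 0.01, 5 scaled by library size only and 1 with the replicate block. It was 6 with the replicate block and the adjustment, and 0 to 15 with 1 library left out. ACLY (log2 fold change 1.20) and MYC (1.25) were not called with the replicate block.

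Small log2 fold changes changed sign. Scaling by library size only moved the median of all genes to -0.17 and gave -0.18 for CS, -0.08 for IDH3B, -0.03 for IDH3G, -0.0026 for MDH2, -0.06 for SDHAF2, -0.15 for LIAS and -0.10 for ATP5F1B. The FPKM table, with medians over all genes of -0.16 and -0.20 at pseudocounts of 1 and 0.1, gave -0.18 for CS, -0.07 and -0.08 for IDH3B, -0.06 for IDH3G, -0.03 for MDH2, -0.06 for SDHAF2 and -0.12 for ATP5F1B. There 0 of 9 members were above 0, with a median of -0.23. FH had an unadjusted limma p of 0.041 at a pseudocount of 1, where 16.3% of all genes had a p under 0.05. The GC and length adjustment gave -0.04 for CS, -0.07 for IDH3B, -0.01 for IDH3G and -0.07 for ATP5F1B. With the replicate block as well it gave -0.06 for CS, -0.07 for IDH3B, -0.01 for IDH3G and -0.08 for ATP5F1B. LIAS was at -0.0021 by DESeq2, -0.0076 by limma-voom, -0.0086 with the replicate block, -0.0024 scaled by the median of ratios and -0.08 by upper quartile, where CS was at -0.08. With 1 library left out, with and without the adjustment, CS ranged from -0.25 to 0.19, IDH3A from -0.50 to 0.04, IDH3B from -0.15 to 0.34, IDH3G from -0.07 to 0.39, IDH2 from -0.50 to 0.15, SUCLG1 from -0.35 to 0.17, FH from -0.24 to 0.15 and MDH2 from -0.16 to 0.45. SUCLA2 ranged from -1.55 to -0.39 without changing sign. SDHA ranged from -0.20 to 0.14, SDHAF2 from -0.12 to 0.34, LIAS from -0.17 to 0.22 and ATP5F1B from -0.23 to 0.34. The log2 ratio of IDH2 to IDH3A ranged from -0.22 to 0.70, IDH3B to IDH3G from -0.09 to 0.06 and SUCLG1 to SUCLG2 from -0.52 to 0.41, while SUCLA2 to SUCLG2 kept its sign (-1.37 to -0.72). Transcript share differences ranged from -4.61 to 4.56 and from -6.11 to 2.16 percentage points for 2 IDH3A transcripts, and from -2.93 to 10.3 and from -0.623 to 9.14 for 2 IDH2 transcripts. The cause of these shifts was not tested. At 3 libraries per group, the intervals of the 9 genes reached 0.244-fold at the lowest and 1.92-fold at the highest.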
